A study of Mus musculus with 3 samples.

Results

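Transcripts of 10 inflammatory cytokine, acute-phase and NF-κB feedback genes were described across endothelial cells of the adult mouse heart that had been placed in co-aggregate culture. The genes were *Il1a*, *Il1b*, *Il6*, *Csf3*, *Csf1*, *Saa3*, *Lcn2*, *Ptgs2*, *Tnfaip3* and *Nfkbia*, 10 of the 27,994 genes in the count table. They had been chosen because their levels were high in cluster 1, 1 of the 7 clusters that the authors assigned to the cells, so their levels across the clusters are given as a description, without a test.

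The cells were sorted from hearts of 12- to 16-week-old female mice with a GFP transgene, as GFP+ cells positive for CD31 and VE-Cad and negative for CD41, CD45, PDGFRA and PDGFRB. Some were taken fresh (0 h), and the others were recovered after 24, 48, 72 or 96 h of aggregation with DsRed+ *Mesp1*-derived PDGFRA+ stromal cells (PSCs) of the E11.5 aorta-gonad-mesonephros region. The medium contained 20% fetal calf serum and 100 ng/ml each of IL-3, SCF and Flt3L, and the recovered cells were gated as GFP+CD31+VE-Cad+PDGFRA-. Cells of all time points were pooled, 3 independent pools were sequenced, and neither the time point nor the pool of a cell is known here. Fresh and cultured cells therefore cannot be told apart, the 9,562 cells were treated as 1 sample, and no p-value is given. Library suffixes 1, 2 and 3 on the cell barcodes gave 3 sets of cells (libraries), for which the main values of the 10 genes are also shown.

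Cluster 1 comprised 799 cells (384, 179 and 236 in libraries 1, 2 and 3), whereas clusters 0 and 2 to 6 had 728, 5,396, 239, 518, 1,572 and 310 cells. Its cells were the shallowest, with a median of 7,875 unique molecular identifiers (UMIs, 1 per captured transcript), whereas the medians of the other clusters lay between 14,061 and 36,065.5. All 8 endothelial markers were detected in cluster 1 at a summed level of 50.1 UMIs per 10,000, against 49.2 and 34.99 in clusters 0 and 2. The capillary markers summed to 83.7 per 10,000 in cluster 1, and to between 1.18 and 2.72 elsewhere. The gate on fresh cells left out CD45+ cells, whereas that on recovered cells did not use CD45. Leukocyte markers summed to 8.37 per 10,000 in cluster 1 (4.32 to 11.2 by library), and these cells are examined separately. Immediate-early and heat-shock genes that rise when tissue is dissociated summed to 27.3 per 10,000 in cluster 1 (23.5 to 34.3 by library) and to between 3.55 and 15.2 in the other clusters, and their part in the values that follow was not tested.

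Interleukin 1 is released by injured or activated cells as an α and a β form and acts on endothelium through a shared receptor. Its signal frees the transcription factor NF-κB from the inhibitor IκBα, and NF-κB then drives genes for further cytokines, for leukocyte-attracting chemokines and for its own inhibitors, so the response limits itself. Interleukin 6 and the colony-stimulating factors carry the signal to distant tissues, where acute-phase proteins are made with the help of C/EBP factors, and in vessels they recruit and sustain myeloid cells. Activated endothelium is a well-known source of interleukin 6 and of colony-stimulating factors.

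Regulatory sequence of 7 of the genes is shown because NF-κB and C/EBP factors are known to act at genes of this kind. Promoter windows were matched for 9 genes and not for *Csf3*, and the 250 bases before the start site were searched on both strands for a κB-type motif (GGANNNTCC), a C/EBP-type motif (TTNNGCAA) and an AP-1-type motif (TGANTCA), which were chosen after the sequences had been seen. Capitals mark the κB-type or C/EBP-type match in RefSeq sequence of GRCm38.p6, written 5′ to 3′ on the gene's own strand.
Il6 (chr5:30012976-30013089, + strand): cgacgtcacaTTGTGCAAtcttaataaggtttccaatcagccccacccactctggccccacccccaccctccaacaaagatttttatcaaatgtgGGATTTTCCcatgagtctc
Nfkbia (chr12:55492658-55492835, - strand): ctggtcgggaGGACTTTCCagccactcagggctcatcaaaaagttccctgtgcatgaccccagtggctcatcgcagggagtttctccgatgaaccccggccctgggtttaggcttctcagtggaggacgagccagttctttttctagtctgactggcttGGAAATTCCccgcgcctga
Csf1 (chr3:107760605-107760633, - strand): gggccttgagGGAAAGTCCctaggggcca
Tnfaip3 (chr10:19015416-19015444, - strand): tcacgtgactGGAATTTCCatcggaaatc
Saa3 (chr7:46715758-46715785, - strand): gtaagtgggaTTATGCAAgatcaaacag
Lcn2 (chr2:32387938-32387965, - strand): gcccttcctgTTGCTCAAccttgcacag
Ptgs2 (chr1:150099952-150099979, + strand): gctgcggttcTTGCGCAActcactgaag

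The κB-type motif lay in the windows of *Il6* (43 bases before the start site), *Csf1* (154), *Tnfaip3* (24, in 1 of its 2 windows) and *Nfkbia* (178 and 29), and 7.27% of all 32,851 windows hold it. The C/EBP-type motif was found in those of *Il6* (128 bases before the start site), *Saa3* (99), *Lcn2* (216) and *Ptgs2* (69), against 9.56% of all windows. *Il6* was the gene with a match to all 3 motifs, since an AP-1-type motif, held by 6.75% of windows, lay 249 bases before its start site as well as in the windows of *Il1a* and *Tnfaip3*. *Il1b* had no match. GENCODE places the *Tnfaip3* stretch in an intron of that gene, the *Lcn2* stretch in an exon of *Lcn2* and the *Ptgs2* stretch in an exon of the divergent transcript *Ptgs2os*, whereas the other 4 lay outside annotated genes. A match is a description of the letters and not a sign of binding.

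All 10 genes had their highest level in cluster 1, in each of the 3 libraries. Levels are UMIs of the gene per 10,000 UMIs of all cells in a cluster, with exact Poisson 95% intervals that cover counting error only. For comparison, 1,723 of the 9,205 genes compared, those reaching 0.1 per 10,000 in either group (18.7%), were at least 2-fold higher in cluster 1 than in the other large endothelial clusters, 0 and 2, pooled, and higher in every library. The 10 genes were all among them, from which nothing is read because they were chosen on this difference, and 9 of them reached that minimum in cluster 1 only. Their median log2 ratio was 7.53, whereas that of all genes compared was 0.08.

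Of the interleukin 1 genes, *Il1a* (chr2:129299610-129309972, minus strand) encodes the α form, which acts as an alarm signal when cells are damaged. It had 1,899 of its 2,029 UMIs in cluster 1 (93.6%), a level of 2.26 per 10,000 (2.16 to 2.36), and by library the level was 3.14, 0.808 and 1.98. Cluster 5, which carries leukocyte markers, came next at 0.0134 and cluster 3 at 0.00841, intervals that overlap, so that cluster 1 stood 168-fold above the second. *Il1b* (chr2:129364570-129371139, minus strand), the secreted β form that needs cleavage by caspase 1, lies next to *Il1a* on the chromosome. Its level in cluster 1 was 5.44 (5.28 to 5.60) and by library 7.92, 1.68 and 4.42, and cluster 5 again came second at 0.152 (0.142 to 0.162). In both genes library 1 was highest and library 2 lowest, and without library 1 the cluster 1 levels were 1.496 for *Il1a* and 3.29 for *Il1b*.

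*Il6* (chr5:30013114-30019981, plus strand), the cytokine that induces acute-phase proteins in the liver, was at 0.388 per 10,000 in cluster 1 (0.347 to 0.432). By library its level was 0.555, 0.215 and 0.263, and without library 1 it was 0.243. The fibroblast or stromal-like cluster 4 came second at 0.0777 (0.0627 to 0.0953), and no UMI was found in cluster 6, where 0 UMIs allow a level of up to 0.003425. Of the 5 cytokine genes, *Il6* had the smallest ratio of cluster 1 to the next cluster, 4.99-fold.

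Of the colony-stimulating factors, *Csf1* was also seen in other endothelial cells, whereas *Csf3* was found in few of them. *Csf3* (chr11:98701263-98703629, plus strand) encodes G-CSF, which drives the production of neutrophils, and its level in cluster 1 was 3.75 (3.62 to 3.89), or 3.62, 1.93 and 5.22 by library. The second cluster was the arterial-like cluster 0 at 0.0866, but 106 of its 109 UMIs came from library 2. In that library 4 of 284 cluster 0 cells exceeded 0.5 counts per 10,000. The levels in cluster 0 were 0.00676, 0.277 and 0 by library. *Csf1* (chr3:107741048-107760469, minus strand) encodes M-CSF, on which macrophages depend for survival. It reached 1.04 per 10,000 in cluster 1 (0.975 to 1.11), with 0.943, 0.824 and 1.34 by library, against 0.197 and 0.104 in clusters 0 and 4. Only 42.7% of its UMIs were in cluster 1, against 88.6% for *Csf3*.

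*Saa3* and *Lcn2* are acute-phase genes that are also made outside the liver: *Saa3* encodes a serum amyloid A protein, and *Lcn2* encodes lipocalin 2, which withholds iron from bacteria. *Saa3* (chr7:46711998-46715700, minus strand) had 8,248 UMIs in cluster 1, a level of 9.81 per 10,000 (9.60 to 10.02). Its level differed more between libraries than that of any other of the 10 genes, at 16.4, 6.32 and 2.65, and it was 4.16 without library 1. The second level, 0.266 in cluster 4, also rested on library 1, where it was 0.601 against 0.00344 and 0.0856.

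*Lcn2* (chr2:32384633-32388252, minus strand) was more even between libraries, at 2.02, 1.40 and 1.73 per 10,000, and 1.79 (1.70 to 1.88) in all cells of cluster 1. In cluster 4 it was 0.216, with 0.476 in library 3 and less than 0.1 in the other libraries, and in cluster 5 it was 0.123. Although cluster 5 held 751 UMIs of *Lcn2*, only 1.34% of its cells exceeded 0.5 counts per 10,000, the threshold for a positive cell in the study's methods.

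*Ptgs2* (chr1:150100031-150108227, plus strand), the inducible cyclooxygenase of prostaglandin synthesis, was at 0.637 per 10,000 in cluster 1 (0.584 to 0.694), with 0.768, 0.749 and 0.368 by library. Cluster 4 followed at 0.0870 and cluster 5 at 0.0293, and the remaining clusters lay at or below 0.0112.

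Of the feedback inhibitors, *Nfkbia* (chr12:55489410-55492647, minus strand), which encodes IκBα, was found in every cluster. Its level was 11.9 in cluster 1 (11.7 to 12.1), with 12.4, 9.32 and 13.0 by library, followed by 1.62, 1.01 and 0.805 in clusters 0, 2 and 4, down to 0.278 in cluster 3. Neighbours in this order had separate intervals except clusters 3 and 6. *Tnfaip3* (chr10:19000910-19015657, minus strand) encodes A20, a ubiquitin-editing enzyme that stops signals to NF-κB. It was the gene with the smallest share of its UMIs in cluster 1, 27.3%, at a level of 0.325 (0.287 to 0.365), with 0.408, 0.307 and 0.214 by library, and cluster 5 followed at 0.0729.

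**Figure D1:**
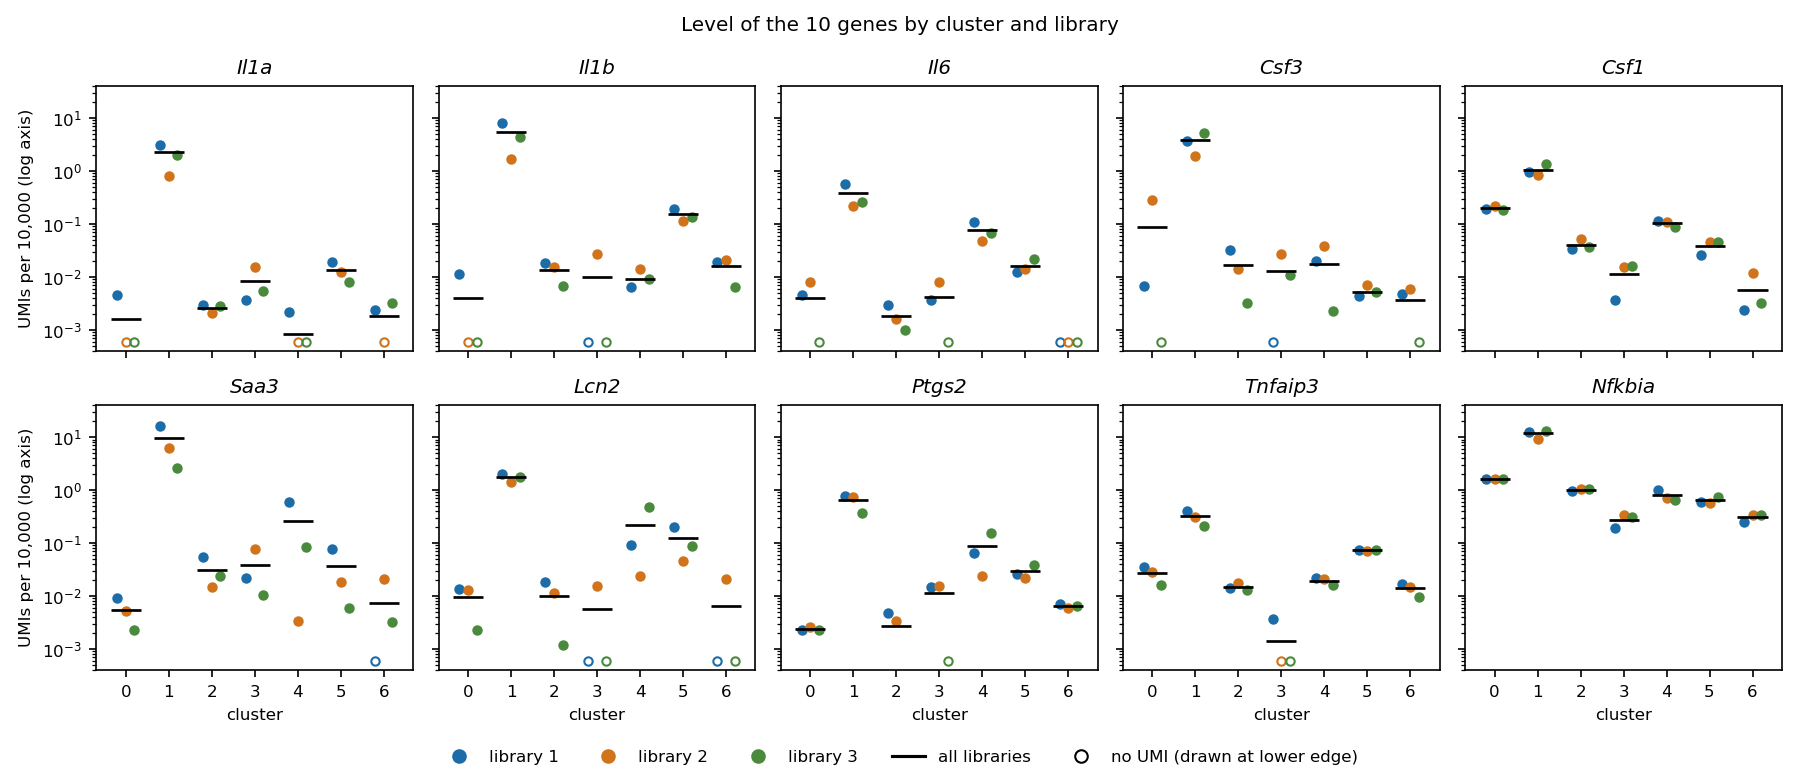
Level of each of the 10 genes, in UMIs per 10,000 UMIs on a log axis, in clusters 0 to 6. Coloured points are the 3 libraries, open points have no UMI, and horizontal black bars mark the level over all libraries, without an interval. In every panel the 3 points of cluster 1 lie above all others, from 0.214 for *Tnfaip3* to 16.4 for *Saa3*.

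Several of these genes also appeared in clusters 4 and 5, and cluster 5 differed in which genes it held. The background there was 881 of 8,792 genes compared (10.0%) at least 2-fold higher than in clusters 0 and 2, and 3 of the 10 genes reached the minimum level, *Il1b* and *Lcn2* in cluster 5 only. *Il1b* was higher by a log2 ratio of 3.60 (3.37 to 3.83, conditional binomial 95% interval) and *Lcn2* by 3.61 (3.36 to 3.87). *Nfkbia* was below clusters 0 and 2, with a log2 ratio of -0.73 that did not pass 2-fold. For the low genes, *Tnfaip3* had a ratio of 2.19, 1.92 to 2.47 by library, *Il1a* of 2.40, *Il6* of 2.99 and *Ptgs2* of 3.42. The ratio of *Csf3* was -2.08, but -2.78, -2.35 and 0.79 by library, so its direction turned in library 3. 

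Because the clusters differ in depth, each cell was also thinned to 5,000 UMIs, which left 745 cells of cluster 1 and removed 54 with fewer. At this equal depth the share of cells with a UMI was highest in cluster 1 for all 10 genes. A UMI of *Nfkbia* was found in 89.5% of cluster 1 cells (Clopper-Pearson 95% interval 87.1 to 91.6), compared with 48.5%, 35.2% and 23.3% in clusters 0, 2 and 5. *Csf1* was found in 24.8% of cluster 1 cells and in 7.34% of cluster 0 cells. The other 8 genes were found in 7.11% to 16.4% of cluster 1 cells, in the order *Csf3*, *Lcn2*, *Saa3*, *Tnfaip3*, *Il6* and *Il1b*, with *Il1a* and *Ptgs2* in 53 cells each. Without thinning, 35.04% of cluster 1 cells had a *Csf1* UMI, 19.4% a *Csf3* UMI, 15.1% an *Il6* UMI and 7.76% an *Il1a* UMI. In cluster 3, where germ or pluripotent-cell genes lead, the share with a UMI at equal depth was 1.67% (0.458 to 4.23) for *Il1a*, 1.26% (0.260 to 3.62) for *Il1b* and 2.51% (0.927 to 5.38) for *Saa3*. *Csf3* was found in 0 of these 239 cells, which allows a share of up to 1.53%. Whether the UMIs in cluster 3 came from free RNA was not tested. Unthinned, a UMI of *Il1b* was found in a larger share of cells in cluster 5 than in cluster 1, as was a UMI of *Tnfaip3*, and the cells of cluster 5 are also the deepest.

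High levels in cluster 1 rested on few cells for some genes and on many for others. Of the *Il1a* UMIs, 78.6% came from 10 of the 799 cells, and 3 cells held 50% of them. The 10 highest cells also held 76.1% of the *Il1b* UMIs and 77.5% of the *Saa3* UMIs, and single cells carried as many as 440 UMIs of *Il1a*, 782 of *Il1b* and 1,055 of *Saa3*. For each of these 3 genes 8 of those 10 cells belonged to library 1, the library in which the level was highest. Without its 10 highest cells the level of cluster 1 was 0.504 for *Il1a*, 1.35 for *Il1b* and 2.29 for *Saa3*, which is still above every other cluster.

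The remaining genes were spread more widely. The 10 highest cells held 55.6% of the *Ptgs2* UMIs, 40.1% for *Csf3*, 39.9% for *Il6*, 32.4% for *Lcn2*, 30.0% for *Tnfaip3* and 22.9% for *Csf1*. *Nfkbia* was the most even, with 10.98% in the top 10 cells and 107 cells holding 50%. In *Il6* 9 of the 10 highest cells were of library 1, whereas in *Csf3* and *Nfkbia* 7 of the 10 were of library 3, and at most 2 of the 10 were of library 2 for any gene.

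**Figure D2:**
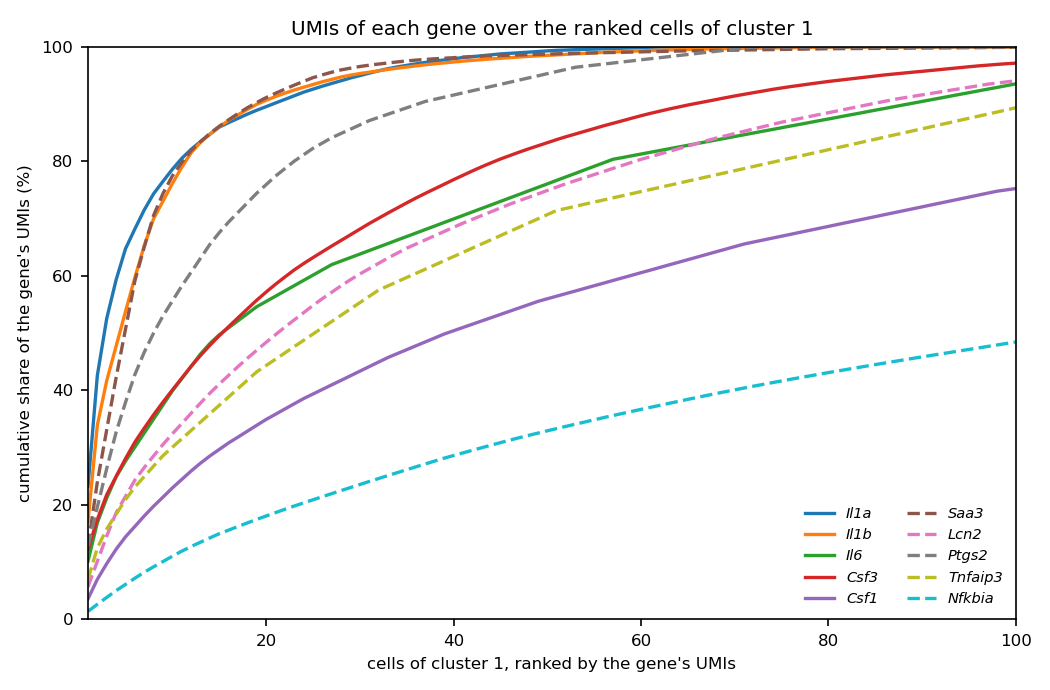
Cumulative percent of each gene's UMIs in cluster 1 (vertical axis) against the number of cells, taken from the highest cell downwards (horizontal axis, linear scale). The curves of *Il1a*, *Il1b* and *Saa3* reach 76.1% to 78.6% at 10 cells, whereas *Nfkbia* reaches 10.98%.

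The cells with the highest interleukin 1 and *Saa3* counts were those with leukocyte transcripts. Cluster 1 cells, thinned to 5,000 UMIs, were divided by their UMIs of 8 leukocyte genes (*Ptprc*, *Spi1*, *Coro1a*, *Laptm5*, *Tyrobp*, *Fcer1g*, *Cd52* and *Cd53*), a cut set after the values had been seen. No such UMI was found in 571 cells, 1 to 4 in 114 cells, and 5 or more in 60 cells (29, 17 and 14 by library). The 60 cells had macrophage markers at 131 per 10,000 against 0.536 in the 571 cells, and endothelial markers at 15.3 against 56.1. All 8 endothelial markers were nonetheless detected in the 60 cells, and their median depth before thinning was 13,933.5 UMIs against 8,243. Whether single cells carried both sets of transcripts or 2 cells shared a droplet was not tested. Scrublet called 18 of all cells as doublets, too few for a working call, and the methods state that singlets had been taken.

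Among the cells with 5 or more and with no leukocyte UMI, 237 of 2,232 genes compared (10.6%) were at least 2-fold higher in the former in every library. Of the 10 genes 8 could be compared, 5 of which reached the minimum of 1 per 10,000 in the 60 cells only, and *Il1a*, *Il1b*, *Saa3* and *Ptgs2* were higher. *Il1a* was at 13.4 per 10,000 in the 60 cells and at 0.0210 in the 571 cells (6 UMIs), a log2 ratio of 9.32 (8.19 to 10.77). The 60 cells held 95.3% of its UMIs, 97.1%, 96.5% and 89.5% by library. *Il1b* was at 31.1 against 0.0595, with 92.6% of UMIs in the 60 cells, and *Saa3* at 56.1 against 0.196, with 90.8%. Without library 1 the levels in the remaining leukocyte-transcript cells were 9.03 for *Il1a*, 17.1 for *Il1b* and 23.1 for *Saa3*, and those in cells without a leukocyte UMI were 0.00649, 0.00649 and 0.208. *Il1a* and *Il1b* were therefore rare in the cluster 1 cells that carry no leukocyte transcript. A UMI of *Il1a* was found in 0.876% of them (0.285 to 2.03), of *Il1b* in 1.40% (0.607 to 2.74) and of *Saa3* in 3.68% (2.29 to 5.57). These shares lie within the intervals of cluster 3, but those are wide because it has 239 cells. In cluster 2, at equal depth, the shares were 0.167% (0.0766 to 0.3175), 0.725% (0.516 to 0.990) and 0.7625% (0.548 to 1.03). For *Saa3* the cluster 2 interval lay below that of the cells without a leukocyte UMI, whereas for *Il1a* and *Il1b* the intervals of these shares overlapped. By level, cluster 2 was at 0.00263 per 10,000 for *Il1a* and 0.0133 for *Il1b* without thinning. Those intervals lay below those of the 571 cells, which rest on 6 and 17 UMIs with 0 in library 3.

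*Ptgs2* fell between the groups, at 2.23 per 10,000 against 0.473, a log2 ratio of 2.24 (1.79 to 2.67). By library that ratio was 2.89, 1.45 and 0.65, so the libraries agreed in direction and differed in size. *Tnfaip3* was at 0.767 against 0.231, a log2 ratio of 1.73 (0.98 to 2.43), but too low to be compared by the rule.

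The levels of *Il6*, *Csf3*, *Csf1*, *Lcn2* and *Nfkbia* over all libraries differed by less than 2-fold between these cells, but the libraries disagreed in direction for 4 of the 5 genes, *Csf3* being the exception. *Nfkbia* was at 12.3 and 12.02 per 10,000, with log2 ratios of -0.47, -0.03 and 0.93 by library, and without library 3 it was at 10.04 and 12.7. *Csf1* was at 1.13 and 0.998, but its log2 ratios by library were -1.64, 0.37 and 1.46. Without library 1 it was at 1.87 and 0.935, and without library 3 at 0.565 and 0.957, so no direction can be given for *Csf1* or *Nfkbia*. *Il6* was at 0.333 in the 60 cells and 0.497 in the 571 cells, a log2 ratio of -0.58 whose interval, -1.67 to 0.34, includes 0. The 60 cells had 10 *Il6* UMIs in all, none of them in library 2. *Csf3* was at 4.10 and 3.02, and *Lcn2* at 2.13 and 1.21, with log2 ratios of 1.04, -0.44 and 1.22 by library. The cells without a leukocyte UMI were 571 of the 745 thinned cells, against which their shares of UMIs have to be set. They held 80.2% of the *Il6* UMIs of cluster 1 (85.5%, 80.95% and 52% by library). Their share was 73.3% for *Nfkbia*, 72.2% for *Csf1*, 64.4% for *Csf3*, 62.2% for *Ptgs2* and 51.8% for *Lcn2*. The 114 cells with 1 to 4 leukocyte UMIs had *Lcn2* at 4.49 (5.83, 2.47 and 4.43 by library) and *Nfkbia* at 15.4 (14.8, 10.2 and 20.5 by library), in each library the highest of the 3 classes. *Csf3* was at 6.21 in them, but this rested on library 3, where it was 11.7 against 4.43 and 2.27 in libraries 1 and 2, and *Csf1* was at 1.33.

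**Figure D3:**
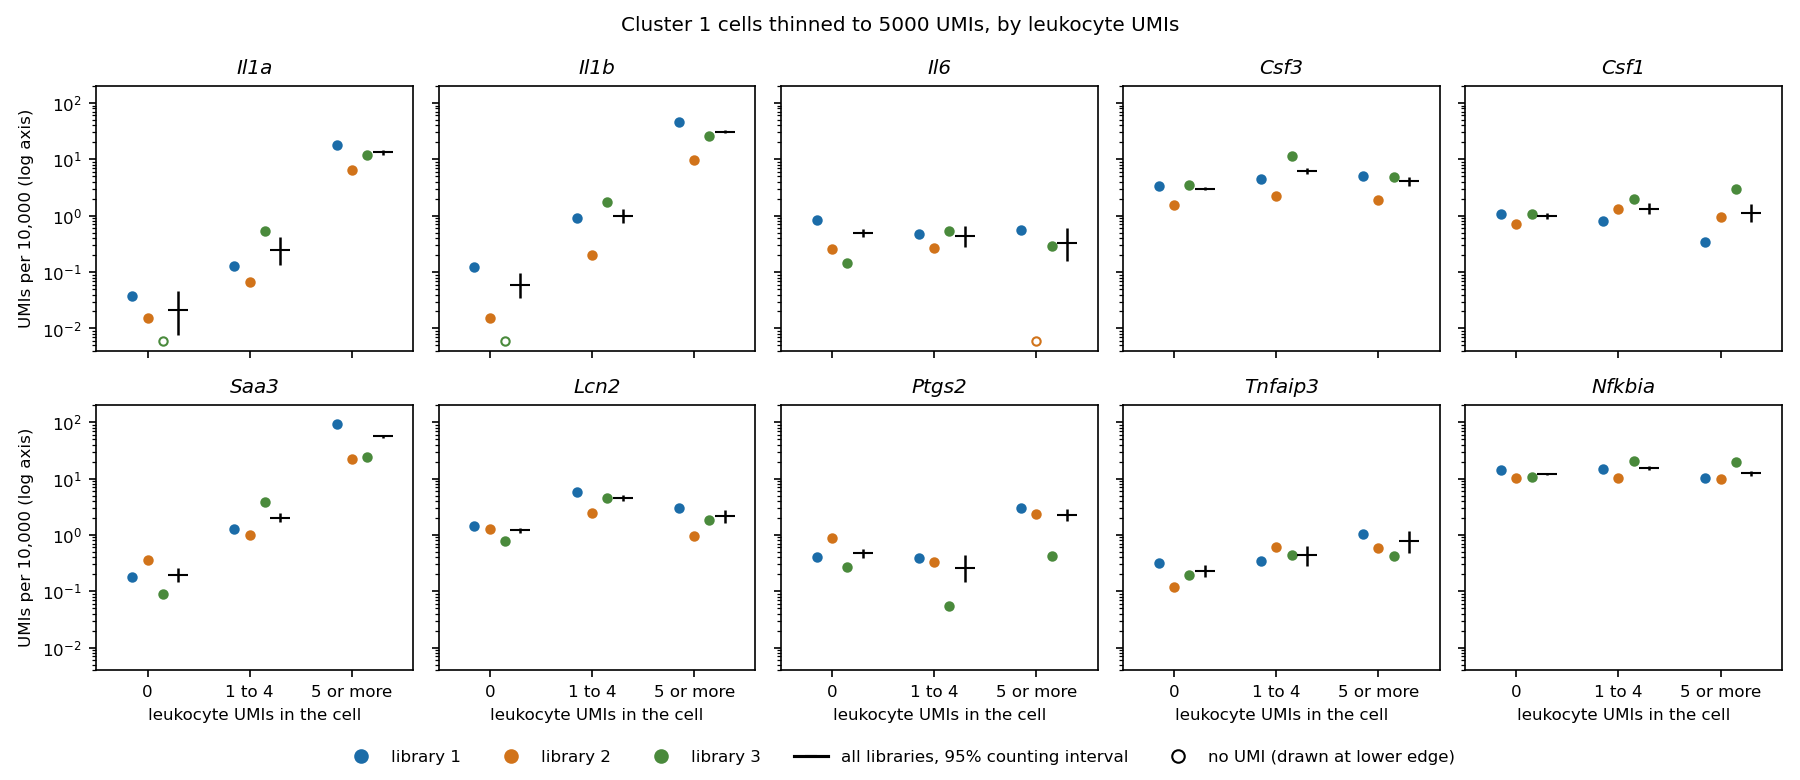
Level of each gene in UMIs per 10,000 (log axis) in cluster 1 cells with 0, 1 to 4 and 5 or more UMIs of 8 leukocyte genes, all thinned to 5,000 UMIs. Coloured points are libraries, open points have no UMI, and black bars show all libraries with exact Poisson 95% intervals. *Il1a* goes from 0.0210 to 13.4, *Il1b* from 0.0595 to 31.1 and *Saa3* from 0.196 to 56.1, whereas over all libraries *Nfkbia* stays between 12.02 and 15.4.

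A stricter class of 267 cells had 10 or more UMIs of the endothelial markers and none of the leukocyte, macrophage, fibroblast or mural markers. In this class *Nfkbia* was found in 87.6% of cells, *Csf1* in 24.3%, *Lcn2* in 11.2%, *Il6* in 9.36% (6.15 to 13.5) and *Csf3* in 7.87%. *Il1a* was found in 1 of the 267 cells and *Il1b* in 2. In 49 cells with stromal or mural transcripts and no leukocyte UMI, *Lcn2* was found in 24.5% (13.3 to 38.9) and *Ptgs2* in 16.3% (7.32 to 29.7). *Il1a*, *Il1b* and *Saa3* had no UMI in those 49 cells, and a count of 0 allows a level of up to 0.151 per 10,000 for each.

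Cells of cluster 5 that carry complement C1q transcripts, products of tissue macrophages, were compared with the 60 cells because both carry leukocyte and macrophage markers. The 604 such cells had leukocyte markers at 49.2 per 10,000, against 60.1 in the 60 cells, and macrophage markers at 56.3 against 131. Over all libraries, all 10 genes were lower in the 604 cells. The genes were chosen as high in cluster 1, to which the 60 cells belong, and no share over all genes is given for this comparison. Nothing is therefore read from that count or from the direction of the ratios. In library 2, *Il6* had 0 UMIs in the 60 cells and 2 in the 604 cells. The 60 cells had 996-fold more *Saa3*, 214-fold more *Il1a* and 83.0-fold more *Il1b*, and for *Il1b* the log2 ratio of 6.38 (6.09 to 6.67) was 7.26, 4.43 and 6.10 by library. The log2 ratio of *Saa3* was 9.61 and 9.75 in libraries 1 and 2, and the 604 cells had no *Saa3* UMI in library 3. The smallest differences were those of *Nfkbia*, 14.6-fold, and *Tnfaip3*, 5.15-fold. The endothelial markers of the 604 cells summed to 4.67 per 10,000.

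Co-detection was examined in the 745 thinned cells of cluster 1. For 44 of the 45 pairs of genes, a cell with the one gene was more often positive for the other than a cell without it, and for 38 pairs this held in every library. The exception was *Il1a* with *Nfkbia*, which is found in 88.7% of *Il1a*+ and 89.6% of *Il1a*- cells. All 745 cells have the same depth, but cells with more leukocyte transcripts enter several of these pairs at once. Among the 571 cells without a leukocyte UMI the count was 43 of 45 pairs, although only 5 of them had *Il1a* and 8 had *Il1b*. No share over other pairs of genes is given, so nothing is read from these counts.

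*Il1a*, *Il1b* and *Saa3* gave the 3 pairs with the largest overlap. *Il1a* and *Il1b* were both present in 47 of the 71 cells that had either (66.2%), and *Il1b* was found in 88.7% of *Il1a*+ cells (77.0 to 95.7) against 2.601% of *Il1a*- cells (1.55 to 4.08). For *Il1b* with *Saa3* the share was 49.0% and for *Il1a* with *Saa3* 45.8%.

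*Csf3*, *Lcn2* and *Csf1* also overlapped, both with each other and with the former genes. *Csf3* and *Lcn2* shared 37.4% of the cells with either, and *Csf3* and *Csf1* 27.4%, but *Csf3* shared 29.8% with *Saa3* and 25.5% with *Il1b*, and *Lcn2* shared 21.4% with *Saa3* and 21.3% with *Csf1*. Among the cells without a leukocyte UMI, *Csf1* was found in 63.6% of *Csf3*+ cells (50.9 to 75.1) and 18.8% of *Csf3*- cells (15.5 to 22.5), and *Lcn2* in 51.5% (38.9 to 64.0) and 7.92% (5.72 to 10.6). Each of those differences was positive in all 3 libraries when all cells were used, from 24.7 to 51.7 percentage points for *Csf3* with *Lcn2*.

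*Il6* overlapped with *Csf1*, *Lcn2* and *Csf3* as well. *Csf1* was found in 50.7% of *Il6*+ cells (38.7 to 62.6) and 22.0% of *Il6*- cells, *Lcn2* in 41.1% and 13.0%, and *Csf3* in 39.7% and 13.8%. The *Csf3* difference was 24.7 and 38.5 percentage points in libraries 1 and 3 and -1.83 in library 2, which held 10 *Il6*+ cells. The pair with the smallest overlap was *Il6* with *Ptgs2*, 7 of 119 cells (5.88%), although 73 and 53 cells had these genes, and its difference was positive in 1 of 3 libraries.

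**Figure D4:**
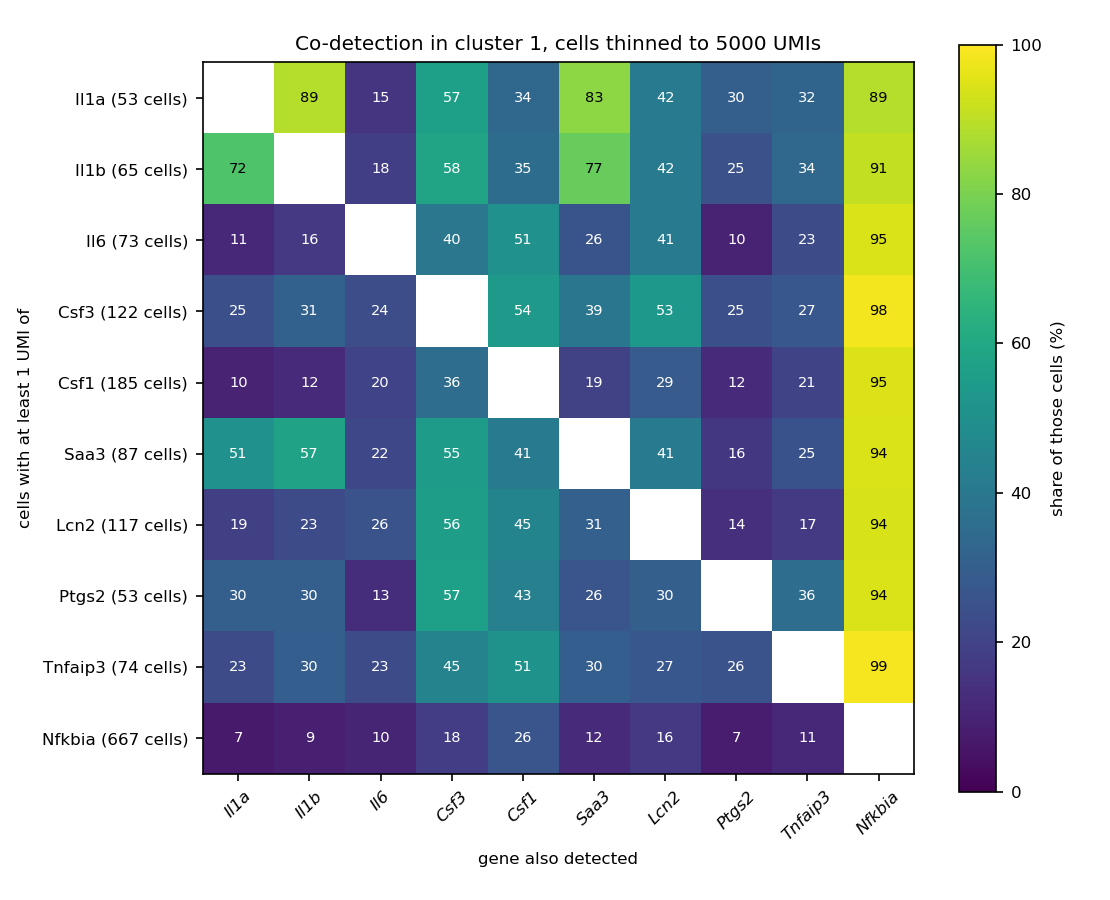
Percent of cluster 1 cells positive for the gene of the column among cells positive for the gene of the row, in 745 cells thinned to 5,000 UMIs. *Il1a* and *Il1b* give 88.7% and 72.3%, *Csf3* and *Lcn2* 53.3% and 55.6%, and the *Nfkbia* column is above 88% throughout.

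Counted per cell, 53 of the 745 cells had none of the 10 genes, 366 had 1, 126 had 2 and 200 had 3 or more, which is 26.8% (23.7 to 30.2). By library the share with 3 or more was 30.7%, 24.0% and 23.4%. In 350 of the 366 cells with 1 gene that gene was *Nfkbia*, so 54.1% of cluster 1 cells carried none of the other 9. At the other end 69 cells had 5 or more genes, and the most in 1 cell was 9. In the other clusters between 0.324% and 1.76% of cells had 3 or more.

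The number per cell was higher with more leukocyte transcripts. Of the cells with no leukocyte UMI 18.6% (15.5 to 22.0) had 3 or more genes, of those with 1 to 4 such UMIs 38.6%, and of those with 5 or more 83.3% (71.5 to 91.7). The order was the same in each library, and the 267 cells with endothelial markers alone gave 14.98% (10.9 to 19.8). That share lay above each of the other clusters, from which nothing is read because the genes were chosen as high in cluster 1.

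**Figure D5:**
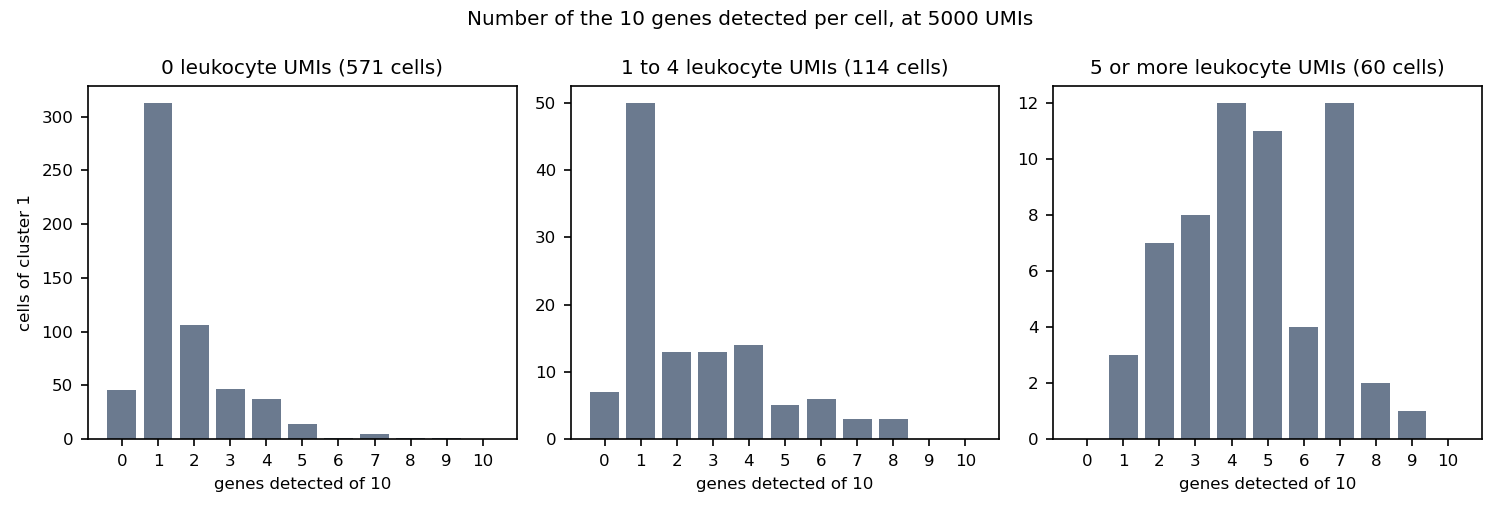
Number of cluster 1 cells (vertical axis, own scale per panel) by how many of the 10 genes were detected at 5,000 UMIs, for cells with 0, 1 to 4 and 5 or more leukocyte UMIs. In the first panel 313 of 571 cells have 1 gene, whereas in the last 50 of 60 cells have 3 or more.

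To see what else the *Il6*+ cells carried, the 73 *Il6*+ and the 672 *Il6*- cells of cluster 1 were compared at equal depth. Of 2,213 genes compared 101 (4.56%) were at least 2-fold higher in the *Il6*+ cells and higher in every library. Of the other 9 members 7 could be compared, and *Csf3* (16.6 against 2.19 per 10,000), *Csf1* (3.32 against 0.816), *Lcn2* (5.04 against 1.43) and *Nfkbia* (27.8 against 10.9) were among the 101. *Csf1* reached the minimum level in the *Il6*+ cells only. *Il1a* was at 0.877 and 1.16, and *Il1b* at 3.18 and 2.65, differences whose intervals include 0. *Saa3* was at 8.08 and 4.64, a log2 ratio of 0.80 (0.62 to 0.98) that excluded 0 but did not pass 2-fold. Because 46 of the 73 cells were of library 1, the comparison was repeated without it: 27 *Il6*+ cells remained, 211 genes were higher, and *Csf3*, *Csf1*, *Lcn2* and *Nfkbia* were again among them.

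The 5 largest ratios were those of *Cxcl10*, *Rrad*, *F3*, *Cxcl1* and *Csf3*. *Cxcl10*, a chemokine induced by interferon, was at 15.9 per 10,000 in *Il6*+ cells and 1.03 in *Il6*- cells, a log2 ratio of 3.95 (3.76 to 4.15), and *Cxcl1*, which attracts neutrophils, was at 50.8 and 6.26. *F3*, which encodes tissue factor, the starter of blood clotting, was at 1.40 and 0.137, and *Rrad*, a small GTPase-like protein, at 1.62 and 0.155. The lowest were *Igfbp5* (0.0274 against 3.13), *Fmo2* (0.0274 against 1.10) and the globin genes *Hba-a1*, *Hba-a2* and *Hbb-bs*. *Hba-a1* and *Hba-a2* are near-identical copies whose reads may be split, and *Hbb-bs* has a near copy in *Hbb-bt*. *Hbb-bs* had no UMI in the *Il6*+ cells and was at least 74.0-fold lower against the floor of 3 UMIs over the group.

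The split by *Csf3* (122 positive and 623 negative cells) gave 192 of 2,235 genes compared (8.59%). The other 9 members were all compared and all among them, 7 having reached the minimum level in the *Csf3*+ cells only. *Ptgs2* was at 2.71 per 10,000 in *Csf3*+ cells and 0.167 in *Csf3*- cells, the largest ratio among these 9. The leading genes were the neutrophil attractants *Cxcl1* (57.4 against 1.47) and *Cxcl2* (91.1 against 2.58), followed by *S100a8* and *Ccl3*. The lipid-transport gene *Gpihbp1* of capillary endothelium was lower, at 0.541 against 12.9, as were *Igfbp5* and 3 globin genes.

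Several marker lists differed in both splits. The adhesion molecules of activated endothelium (*Sele*, *Selp*, *Icam1* and *Vcam1*) summed to 14.6 per 10,000 in *Il6*+ cells (4.6 to 17.8 by library) and 3.87 in *Il6*- cells (3.46 to 4.38), and to 16.9 in *Csf3*+ and 2.58 in *Csf3*- cells. The 6 capillary markers were lower, at 62.3 against 99.1 and at 28.6 against 109, and the 8 endothelial markers at 38.0 against 53.7 and at 26.9 against 57.1. The dissociation genes were at 44.7 against 29.8 and at 44.3 against 28.7, and the 4 erythroid markers at 0.0274 against 8.37 and at 0.0656 against 9.02. The erythroid level of the negative cells ran from 0.352 to 19.8 by library in the split by *Il6* and from 0.338 to 21.2 in the split by *Csf3*. Leukocyte markers were at 5.12 and 5.32 in the split by *Il6*, and at 12.2 and 3.95 in the split by *Csf3*. Without the cells that had a leukocyte UMI, 92 genes were higher in *Il6*+ cells, an alternative chosen after seeing the data. The part of dissociation and of red-cell RNA in these splits was not tested, nor that of leukocyte transcripts in the split by *Csf3*.

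The other genes of the pathway were taken from lists set up with earlier results of these data known. As for the 10 genes, most of those compared reached the minimum level in cluster 1 only, and counts stand against the background of 18.7% higher and 10.3% lower in cluster 1 than in clusters 0 and 2. Of 14 receptors and antagonists 8 were compared and 8 were higher, among them the interleukin 6 co-receptor *Il6st* (0.934 against 0.229 per 10,000) and the interleukin 1 receptor *Il1r1* (0.187 against 0.0173). *Il1rn*, the natural antagonist of that receptor, was at 1.196 against 0.00300, and like *Il1a* it lay in the 60 leukocyte-transcript cells, at 8.47, and hardly in cells without a leukocyte UMI, at 0.0140. The receptors of M-CSF and G-CSF and the interleukin 6 receptor, *Csf1r*, *Csf3r* and *Il6ra*, had their highest levels in cluster 5, at 1.84, 0.201 and 0.377 per 10,000. These 3 were named after their values were seen, and 9 of the 14 receptors and antagonists were highest in cluster 1.

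Of 6 genes for the processing of interleukin 1, 5 were compared and 4 were higher. *Casp1*, the caspase that cleaves the β form, was at 0.325 against 0.00327, whereas *Pycard*, the adaptor of the inflammasome, did not pass and was highest in cluster 5. Of 12 further cytokine genes counted, 5 could be compared and all 5 were higher: *Tnf* at 0.210, *Csf2* at 0.138, *Lif* at 0.108, *Il33* at 0.115 and *Kitl* at 4.25 per 10,000 in cluster 1. *Csf2* and *Lif* had no UMI in the 60 leukocyte-transcript cells and were at 0.144 and 0.137 in cells without a leukocyte UMI. All 9 chemokine genes compared were higher, from *Cxcl2* at 18.3 per 10,000 to *Cxcl5* at 0.145. *Ccl5* had 46.6 in the 60 cells and 0.799 in cells without a leukocyte UMI, whereas *Cxcl1* had 9.83 and 9.80.

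Of 19 further NF-κB subunits, kinases and inhibitors, 18 were compared, 15 were higher, none was lower, and 19 had their highest level in cluster 1. *Traf1*, an adaptor induced by NF-κB, was at 0.709 against 0.00758 per 10,000, *Nfkbiz*, a nuclear IκB protein, at 0.719 against 0.0434, *Tnip1*, a partner of A20, at 1.25 against 0.139, and the subunit *Relb* at 0.858 against 0.121. Their median log2 ratio was 2.15. *Chuk*, *Ikbkg* and *Otud7b* did not pass.

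All 6 compared genes of STAT3 feedback, the arm downstream of interleukin 6, were higher, among them the feedback inhibitor *Socs3* at 1.41 against 0.126 per 10,000 and the C/EBP factor *Cebpb* at 4.25 against 0.168. The acute-phase list had no common direction. Of 13 genes 2 were compared, of which ceruloplasmin (*Cp*) was higher, at 0.310 against 0.00405, and *Lbp*, which binds bacterial lipopolysaccharide, was lower, at 0.1997 against 0.400. *Saa1* and *Saa2*, near-identical copies related to *Saa3*, were highest in cluster 4. Nor did the prostaglandin enzymes: of 7 compared, *Ptges* and *Pla2g4a* were higher, *Hpgd*, which degrades prostaglandins, was lower, and *Ptgs1*, the constitutive cyclooxygenase, did not pass. *Ptges*, which acts after *Ptgs2* in the synthesis of prostaglandin E, was at 1.63 against 0.0135 in clusters 0 and 2, with 9.60 in the 60 cells and 0.133 in cells without a leukocyte UMI.

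The genes whose pattern was most like the mean pattern of the 10 were found over the 21 groups of cluster and library, by Pearson's r of the log2 level plus 0.1 among 3,054 genes, as a description since the groups share libraries and depth. Among the 10 most alike were *Ccl7* (r = 0.99), *Gbp2*, *H2-Q7*, *AW112010*, *Ifit1*, *H2-Q6*, *Cd14*, *Cxcl16* and *Ptges* (r = 0.97). The list depends on the measure: 0 of these 10 were shared with the 10 found by Spearman's rho, and 5 with a pseudocount of 1. They differed in how their levels compared between cluster 1 cells with and without leukocyte transcripts. *Cd14*, a co-receptor for lipopolysaccharide, was at 21.8 per 10,000 in the 60 leukocyte-transcript cells and 0.0981 in cells without a leukocyte UMI. The monocyte attractant *Ccl7* was at 3.83 and 2.80, and *H2-Q6* at 2.03 and 2.41, though reads of *H2-Q6* and *H2-Q7* may be split between these near-identical copies. Among the members themselves r ran from 0.92 for *Nfkbia* to 0.98 for *Il1a*, from which nothing is read because each is part of that mean.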

How the data were processed

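Heart endothelial cells, fresh and co-cultured, were profiled with 10x Genomics 3′ chemistry. Per the labels and methods, the authors processed reads with Cell Ranger 3.1.0 on mm10 (GRCm38), aggregated 3 libraries with batch-effect removal and took singlets with at least 5,000 UMIs, although 90 of the 9,562 cells have fewer. The authors deposited unnormalized UMI counts per cell for each Ensembl gene. A second table deposited by the authors holds the natural log of 1 plus the count per 10,000 UMIs, and another table the cluster numbers and UMAP coordinates. The UMAP coordinates were not used. Genes were named from GENCODE M21, and counts of equal names were summed.

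The members and lists were chosen with earlier results of these data known. Levels are summed counts per 10,000 UMIs. Intervals (95%) are exact Poisson for levels, Clopper-Pearson for shares and conditional binomial for ratios, and cover counting error only, as does the floor of 3 UMIs. With no replicate samples tied to cells, no test was made: a gene is called higher or lower when it differs by at least 2-fold, keeps its direction in all 3 libraries and reaches 0.1 per 10,000 in the higher group (1 in comparisons within cluster 1). Co-detection and classes used cells thinned to 5,000 UMIs (random seed 1). Counts are 3′ tags, 1 per captured transcript, and were not divided by length. Libraries held 3,507, 3,958 and 2,097 cells with median depths of 23,651, 13,440.5 and 38,312 UMIs, and 13 barcodes occurred in more than 1 library. Named genes were the members, up to 4 per pathway list, the 5 highest and lowest of each split, and the 10 most alike, of which 1 is not reported here; *Il6st*, *Il1r1* and other list genes given for where they peaked were named after their values were seen. Alternatives left out libraries, shallow cells or Scrublet calls, or changed depth, threshold, minimum level, fold or measure. Scripts, checked on simulated counts, used Python 3.11.15, numpy 2.4.6, scipy 1.17.1, pandas 2.3.3, scanpy 1.11.5 and matplotlib 3.10.9.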

Additional observations from a re-analysis of the deposited data

How the results depend on the processing

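All 10 genes were highest in cluster 1, by level and at above 1 count per 10,000, under every alternative tried, and 8 of 10 were when any UMI counted as positive in unthinned cells, *Il1b* and *Tnfaip3* being the exceptions. The count of genes at least 2-fold higher in cluster 1 was 1,723; with a minimum level of 1 per 10,000 it was 438, with no minimum 3,086, and at 4-fold 860. The share of cluster 1 cells with 3 or more of the 10 genes was 26.8%; in unthinned cells it was 33.0%, at 2,000 UMIs 19.4%, with at least 2 UMIs required 16.6%, and with 1 library left out 23.7% (without library 1) to 28.4%. In the split by *Il6* 101 genes were higher, against 192 in the split by *Csf3*, 291 with a minimum level of 0.1 per 10,000, and 106 to 211 with 1 library left out, the highest without library 1. Of the 10 genes most like the members, 0 were shared when Spearman's rho was used, 5 with a pseudocount of 1 and 5 over the 7 clusters. The count of positive pairs ranged from 43 to 45. The cause of these changes was not tested. Alternatives for cluster 5, for cells with 5 or more leukocyte UMIs, for macrophage markers and for the *Il6* split without leukocyte-UMI cells (92 genes) were chosen after seeing the data. Of the values for single genes across clusters, 50 levels moved and 30 stayed the same. Of the log2 ratios 29 moved and 41 stayed, and of the shares 12 moved and 48 stayed. Between cells with 5 or more and with 0 leukocyte UMIs, *Csf1* and *Nfkbia* turned direction without library 3 (0.565 against 0.957 and 10.04 against 12.7 per 10,000), and so did *Il6* in single libraries. No paired analysis was possible because no test was made and no label ties a library suffix to a pool, so clusters and classes were compared within each library instead. Depth limits *Il6*, *Tnfaip3* and *Ptgs2* most, with 326, 273 and 536 UMIs in cluster 1.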
